A study of Mus musculus with 8 samples.

Results

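Cholesterol that enters a liver cell inside lipoproteins is freed in the lysosome, leaves it through the NPC proteins, travels between membranes on carrier proteins and is stored as cholesteryl ester when an acyl chain is added to it. The RNA of 10 genes of this route was described: Npc1 and Npc2 for the exit from the lysosome, Osbpl1a, Osbpl2, Osbpl5, Osbpl9 and Stard3 for transport between membranes, Soat1 and Soat2 for esterification, and Nceh1 for the hydrolysis of the ester. They were chosen by gene symbol for their known role, and they are 10 of the 17810 genes that the deposited table lists. All 10 had enough counts to be tested, among 12395 tested genes.

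RNA-Seq was performed on whole liver from 4 WT and 4 HKO mice, 1 library per liver. HKO mice have loxP-flanked miR-33 alleles and an Albumin-Cre transgene, a promoter that drives Cre recombinase in hepatocytes, so the other cells of these livers are meant to keep miR-33. The WT mice were their littermates. Whether these carried the floxed alleles without Cre was not stated in the sources used here. All 8 mice were males that ate chow until 8 weeks of age and then, for 3 months, the CD-HFD, a diet high in fat and free of added choline that causes fatty liver. They were 5 months old by the labels, and their livers were perfused with PBS after a fast. The genotype of each library rests on its label, since Mir33 itself was not analysed here. The libraries carry the order numbers 55 to 58 in HKO and 59 to 62 in WT livers, so place in this order and genotype cannot be told apart.

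Hepatocytes both take up lipoprotein cholesterol and export it again, and they store the excess as ester in lipid droplets. miR-33 is encoded within Srebf2, the gene of the transcription factor that raises cholesterol synthesis, and its known targets include the cholesterol exporter ABCA1. A microRNA binds mostly to the 3'UTR of a messenger RNA through its seed, bases 2 to 8, and lowers the level or the translation of that RNA. The mature strand in RefSeq (GRCm38.p6) lies on chromosome 15 from 82198127 to 82198147, plus strand. It is shown with its seed in capitals, above the matching piece of a 3'UTR from Soat2, from Osbpl6, a relative of the Osbpl genes above, and, for reference, from Abca1. Capitals mark 1 counted match in each piece, which pairs with the seed except for its last A, opposite base 1. The Osbpl6 match pairs with bases 2 to 7 only. The Abca1 piece holds a further 7-base match that overlaps the marked one and is not marked.
miR-33-5p: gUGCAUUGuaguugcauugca
Soat2 3'UTR: tttctgcttctccCAATGCAAcaata
Osbpl6 3'UTR: tcatgccttaagaAATGCAAagatg
Abca1 3'UTR: tactgacactattCAATGCAAtgcac

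These pieces were read from the GRCm38 genome with the GENCODE vM21 annotation. The Soat2 piece is at chr15:102163239-102163264 on the plus strand, the Osbpl6 piece at chr2:76596529-76596553 on the plus strand and the Abca1 piece at chr4:53033796-53033821 on the minus strand. A match was counted where the transcript strand of the longest annotated 3'UTR held CAATGCA or AATGCAA, and an 8-base match where it held both at once, as CAATGCAA. Among the 10 genes, 2 held a 7-base match, Npc1 and Soat2, and the Soat2 match was the 8-base form within a 3'UTR of 522 bases. That is 20% of the 10 genes, against 16.2% of the 11536 tested genes with a 3'UTR of at least 50 bases. The 8-base form occurred in 1 of the 10 genes and in 2.11% of all tested genes. The shorter 6-base match AATGCA was in 6 of the 10 genes and in 33.7% of all tested genes. In the coding sequence, 1 of the 10 genes, Osbpl9, held a 7-base match, against 18.1% of all tested genes. The median 3'UTR had 1101 bases in the 10 genes and 1214 in all tested genes. Nceh1, with a 3'UTR of 3140 bases, held no 6-base, 7-base or 8-base match there.

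The libraries held between 12174339 and 18735785 counts, which puts a floor of 3 counts at 0.16 to 0.246 CPM of these unadjusted totals. CPM is the count of a gene relative to the total of its library, on the usual scale of parts in 10 to the power of 6. For all other CPM values the totals were adjusted by the TMM factors of edgeR. The floor covers counting error only. A gene was called where the quasi-likelihood test of edgeR gave p under 0.05 after Benjamini-Hochberg adjustment, which held for 206 genes higher and 418 lower in HKO livers. Scaling by total count alone gave 119 higher and 621 lower. Some livers stood apart in gene groups that touch the results. WT liver 1 had a summed level of 17 targets of SREBP2, the sterol-sensing transcription factor, of 5017 CPM, where the rest of the WT livers had 1673 to 2181 CPM. HKO liver 2 had 98.8 CPM over 12 macrophage markers, against 281 to 303 CPM in the other HKO livers, and 44.6 CPM over 4 cholangiocyte markers, against 6.17 to 16.4 CPM in the other 7 livers. HKO liver 1 was the liver with 3.51 CPM over the listed adipocyte markers, Adipoq and Lep, where the other 7 livers had at most 0.618 CPM.

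Of the 10 genes, Nceh1 was called lower in HKO livers and none was called higher. Among all 12395 genes 5.03% were called, 3.37% lower and 1.66% higher, so 1 call in 10 genes is near the general share. An unadjusted p under 0.05 was found for 3 of the 10 genes, Nceh1 and Osbpl5 in the lower and Osbpl9 in the higher direction, beside 19.8% of all genes, 10.7% lower and 9.08% higher. The genotypes did not overlap in 1 of the 10 genes, Nceh1, beside 12.5% of all genes, 7.19% lower and 5.34% higher. The median log2 fold change of the 10 genes was 0.06, beside 0.01 for all genes, with 6 genes above 0 and 4 below. With DESeq2, Osbpl9 was called higher, and Nceh1 and Osbpl5 lower, where 8.18% of all genes were called, 3.11% higher and 5.07% lower. With limma-voom 0 of the 10 genes were called, beside 4.86% of all genes, 1.61% higher and 3.25% lower.

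**Figure D1:**
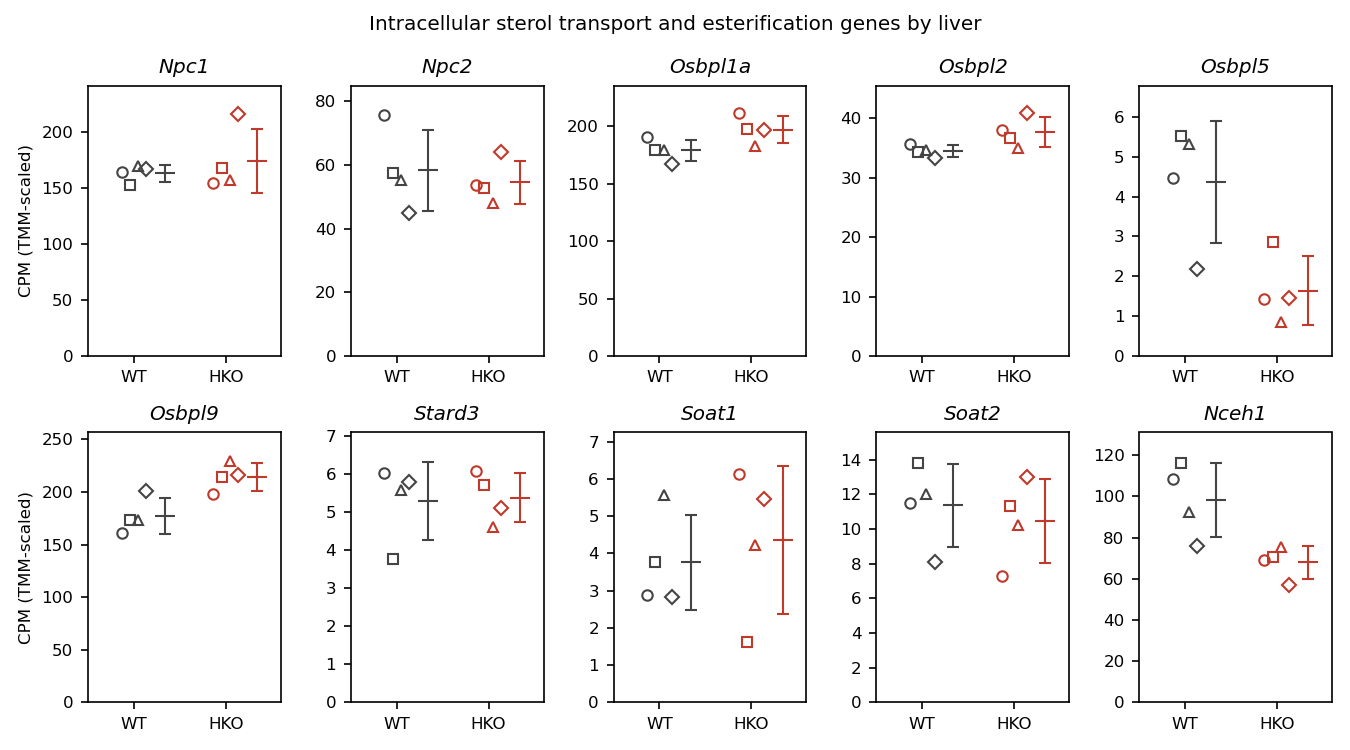
CPM of the 10 genes in each liver, WT in grey and HKO in red, with circle, square, triangle and diamond for replicates 1 to 4, and beside the points the mean with the SD (n = 4). Each axis starts at 0. The 4 HKO livers lie below the 4 WT livers in Nceh1 alone, where the lowest WT liver is at 75.7 CPM and the highest HKO liver at 75.3 CPM.

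Nceh1, on chromosome 3 from 27183004 to 27244911, encodes neutral cholesterol ester hydrolase 1, an enzyme of the endoplasmic reticulum that frees cholesterol from its ester. Its RNA was at 108.3, 116, 92.4 and 75.7 CPM in the WT livers 1 to 4 and at 69.1, 70.6, 75.3 and 56.9 CPM in the HKO livers 1 to 4. The genotypes did not overlap, but WT liver 4 lay next to the highest HKO liver, and WT livers 1 and 2 stood well above all others. Nceh1 fell from 98.1 ± 17.9 CPM (SD, n = 4) to 68.0 ± 7.86 CPM (SD, n = 4), a log2 fold change of -0.53 (SE 0.13, 95% interval -0.82 to -0.24), which is 1.44-fold lower. The adjusted p was 0.0456 from edgeR with Benjamini-Hochberg adjustment, just past the threshold, 0.00787 from DESeq2 and 0.0608 from limma-voom.

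The call on Nceh1 depended on nearly every liver. Without WT liver 4 it was called with an adjusted p of 0.012. Without any other single liver it was not, with the adjusted p (edgeR) between 0.0583, without HKO liver 3, and 0.142, without WT liver 2. The log2 fold change stayed between -0.63 and -0.43 in these 8 fits. Leaving out both WT liver 1 and HKO liver 2, a choice made after seeing the data, gave an adjusted p of 0.192 (edgeR).

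Nceh1 is also known as an enzyme of macrophages. In whole liver, fewer cells of a type and less RNA per cell cannot be told apart. None of 12 macrophage markers was called by edgeR or DESeq2 or had an unadjusted p under 0.05, and their summed level ranged from 136 to 327 CPM in WT and from 98.8 to 303 CPM in HKO livers. Of 6 markers of lipid-associated macrophages 4 were tested, and 1 of them, Gpnmb, was called lower, beside 3.37% of all genes. Gpnmb was at 0.768 to 1.49 CPM in WT livers and at no more than 3 counts in any HKO liver (adjusted p = 0.0041, edgeR). The 4 tested markers had a median log2 fold change of -0.96, with 3 below 0 and 1 above. For 2 of the 4 the unadjusted p was under 0.05 (edgeR), beside 19.8% of all genes. DESeq2 called 2 of the 4 lower and none higher, beside 5.07% and 3.11% of all genes. In the same list Trem2 and Itgax were too low to be tested, and the summed level was 21.9 to 38.03 CPM in WT and 11.8 to 28.9 CPM in HKO livers. Of 8 stellate cell markers 3 were called lower, beside 3.37% of all genes, and none higher. These 3 were the collagen genes Col1a1, Col1a2 and Col3a1, with log2 fold changes of -2.81, -1.96 and -1.87. Over all 8 markers the median log2 fold change was -0.12, with 5 below 0 and 3 above. The list summed to 384 to 564 CPM in WT and 313 to 413 CPM in HKO livers. The part of these cells in the Nceh1 difference was not tested.

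The proteins of lysosomal exit are a pair. NPC2 is a soluble protein that picks cholesterol up in the lysosome and hands it to NPC1, which carries it through the membrane. Npc1, on chromosome 18 from 12189694 to 12236386, was at 164, 152, 169 and 166.7 CPM in WT livers and at 154, 168, 157 and 215 CPM in HKO livers. HKO liver 4 stood above the other 7 livers, which lay close together. This was a log2 fold change of 0.09 (SE 0.11, 95% interval -0.14 to 0.32, adjusted p = 0.703, edgeR), or of -0.03 without HKO liver 4. Npc2, on chromosome 12 from 84754559 to 84773112, was at 75.6, 57.5, 55.3 and 45.0 CPM in WT livers and at 53.8, 52.6, 47.9 and 64.0 CPM in HKO livers. The WT livers held both the highest and the lowest value, with all HKO livers between them. Its log2 fold change was -0.09 (SE 0.15, 95% interval -0.42 to 0.23, adjusted p = 0.787, edgeR), and without WT liver 1 it was 0.06.

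The ratio of Npc2 to Npc1 within each library does not depend on the scaling between libraries. On the log2 scale of counts, with 0.5 added, the mean was -1.51 ± 0.33 in WT livers and -1.66 ± 0.10 in HKO livers (SD, n = 4 each). The difference of -0.16 had p = 0.457 when the 8 livers were exchanged between the genotypes in all 70 ways (exact permutation test, two-sided, smallest possible p 0.0286). The value was 0.686 after Benjamini-Hochberg adjustment over 2 ratios. The reads of Npc1 and Rmc1 could have been shared, since the listed coordinates of these neighbours overlap at one end and the values of Npc1 hold fractions in all 8 livers.

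Oxysterol-binding protein relatives move sterols and phospholipids between membranes that touch each other. Osbpl9, on chromosome 4 from 109061145 to 109202272, was at 161, 173, 174 and 201 CPM in WT livers and at 198, 214, 229.8 and 217 CPM in HKO livers. WT liver 4 lay above HKO liver 1, and otherwise the HKO livers were the higher ones. Osbpl9 had a log2 fold change of 0.27 (SE 0.09, 95% interval 0.09 to 0.46), with an adjusted p of 0.0974 from edgeR and 0.0413 from DESeq2. Without WT liver 4 the adjusted p was 0.0406 (edgeR). Osbpl9 overlaps its neighbour Nrd1 in the listed coordinates, on the other strand, and its values hold fractions in all 8 livers.

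Osbpl1a, on chromosome 18 from 12755312 to 12941841, encodes a protein of late endosomes that senses their cholesterol. It was at 190.6, 179.1, 179.4 and 167.3 CPM in WT livers and at 212, 198, 183 and 197 CPM in HKO livers. HKO livers 1, 2 and 4 lay above all WT livers and HKO liver 3 lay among them. Its log2 fold change was 0.14 (SE 0.08, 95% interval -0.03 to 0.30, adjusted p = 0.345, edgeR).

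Osbpl2, on chromosome 2 from 180119306 to 180162682, encodes a relative found on lipid droplets. It was at 35.7, 34.3, 34.7 and 33.3 CPM in WT livers and at 37.99, 36.7, 35.0 and 40.9 CPM in HKO livers. HKO livers 1, 2 and 4 were above the WT livers and HKO liver 3 was not. For Osbpl2 the log2 fold change was 0.13 (SE 0.08, 95% interval -0.05 to 0.30, adjusted p = 0.418, edgeR).

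Osbpl5, on chromosome 7 from 143688762 to 143757008, encodes a protein anchored in the endoplasmic reticulum at contacts with the plasma membrane. It had the lowest counts of this family among the 10 genes, with 54, 79, 107 and 33 counts in WT livers 1 to 4 and 21, 37, 15 and 17 counts in HKO livers 1 to 4. In CPM this was 4.46, 5.51, 5.32 and 2.17 in WT livers and 1.42, 2.86, 0.845 and 1.45 in HKO livers. The genotypes overlapped through WT liver 4 and HKO liver 2, and the other 3 livers of each genotype were apart. A log2 fold change of -1.43 (SE 0.38, 95% interval -2.27 to -0.60) was the largest in size among the 10 genes, and it missed the threshold with an adjusted p of 0.0565 from edgeR and 0.0763 from limma-voom. DESeq2 gave an adjusted p of 0.00767. Leaving out WT liver 4 or HKO liver 2 brought the adjusted p to 0.0213 and 0.0206 (edgeR), while leaving out the other livers 1 at a time gave up to 0.166.

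Stard3 encodes a START protein of late endosomes that passes cholesterol at contacts with the endoplasmic reticulum. The gene, on chromosome 11 from 98358368 to 98381112, was at 6.03, 3.77, 5.57 and 5.78 CPM in WT livers and at 6.07, 5.71, 4.62 and 5.11 CPM in HKO livers. The ranges overlapped almost entirely. Stard3 had a log2 fold change of 0.02 (SE 0.18, 95% interval -0.37 to 0.42, adjusted p = 0.966, edgeR).

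Both sterol O-acyltransferases make cholesteryl ester in the endoplasmic reticulum. Soat2 is the form of hepatocytes and enterocytes, and Soat1 is found in most cells and is prominent in macrophages. Soat1, on chromosome 1 from 156428108 to 156474328, was at 2.89, 3.77, 5.57 and 2.83 CPM in WT livers and at 6.14, 1.62, 4.23 and 5.45 CPM in HKO livers. HKO livers held both the highest and the lowest value. Its log2 fold change was 0.20, with the wide 95% interval from -0.62 to 1.02 (SE 0.37, adjusted p = 0.83, edgeR), or -0.01 without HKO liver 1.

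Soat2, on chromosome 15 from 102150575 to 102163436, was at 11.49, 13.8, 12.04 and 8.08 CPM in WT livers and at 7.29, 11.3, 10.3 and 13.02 CPM in HKO livers. The genotypes covered nearly the same range. Soat2 had a log2 fold change of -0.12 (SE 0.20, 95% interval -0.55 to 0.31, adjusted p = 0.804, edgeR), or of 0.02 without HKO liver 1. Soat2 holds the 8-base match to the miR-33 seed shown above, and Npc1 the other 7-base match, and neither was called in HKO livers. For Abca1, with 3 matches in its 3'UTR, the log2 fold change was 0.47 (SE 0.09, adjusted p = 0.0175, edgeR), from 298 ± 18.6 CPM (SD, n = 4) to 412 ± 47.5 CPM (SD, n = 4). Without WT liver 1 or WT liver 2 the adjusted p of Abca1 was 0.0608 and 0.0745 (edgeR).

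The balance of the acyltransferases, as the log2 ratio of Soat2 to Soat1 counts within a library, was 1.97, 1.86, 1.11 and 1.51 in WT livers and 0.25, 2.78, 1.27 and 1.25 in HKO livers. HKO liver 1 had the lowest ratio and HKO liver 2 the highest. The means were 1.61 ± 0.39 in WT livers and 1.39 ± 1.04 in HKO livers (SD, n = 4 each). The difference of -0.23 had p = 0.686 in the same exact permutation test (0.686 adjusted), and it was 0.15 without HKO liver 1.

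The 3 livers with the least Soat1, HKO liver 2, WT liver 4 and WT liver 1, were also the 3 livers with the least RNA of macrophage markers, at 98.8, 172 and 136 CPM. The other 5 livers had 281 to 327 CPM of these markers and 3.77 to 6.14 CPM of Soat1. Soat2 did not follow this order, and its lowest value was in HKO liver 1, with 287 CPM of macrophage markers. These are descriptions over 8 livers of both genotypes, and the part of macrophages in the Soat1 level was not tested.

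**Figure D2:**
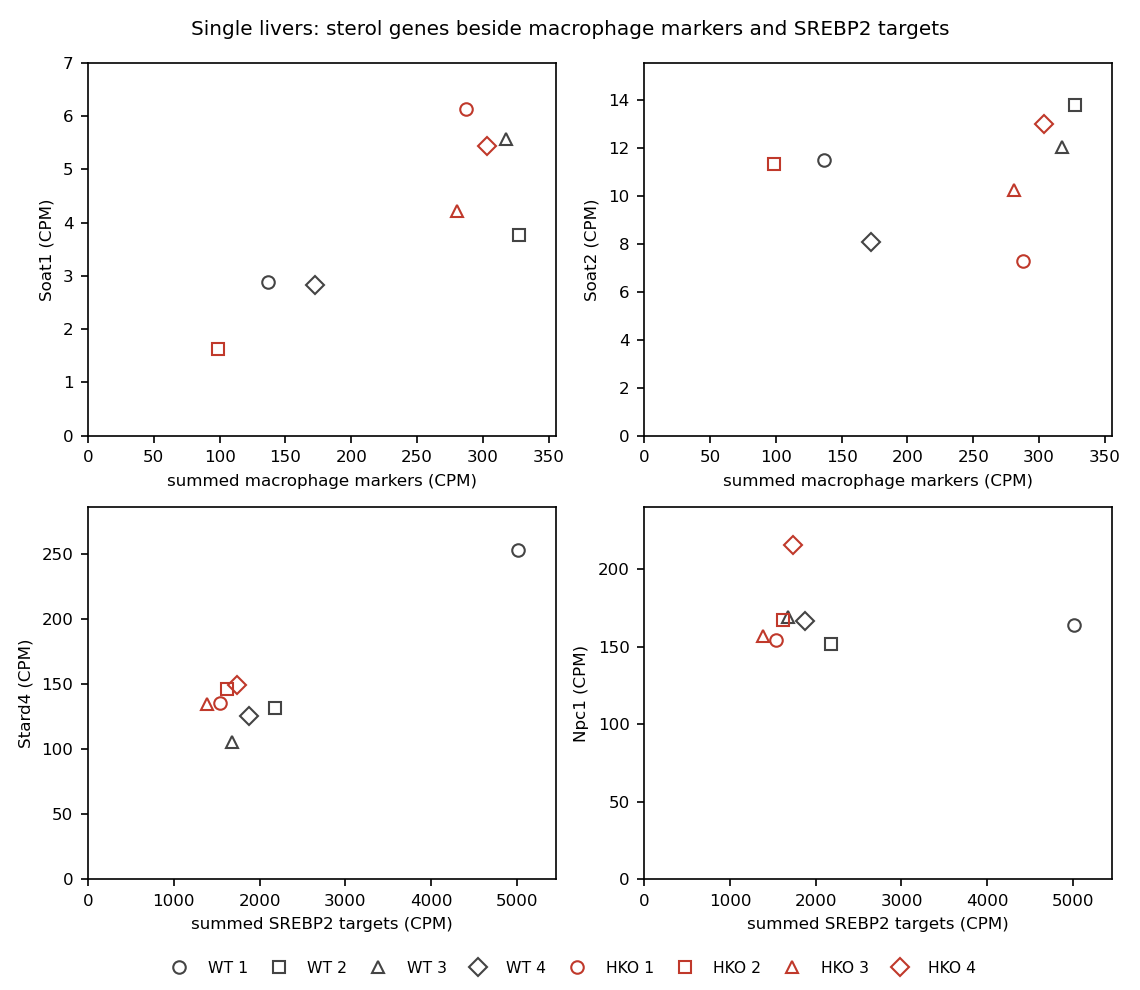
Single livers, WT in grey and HKO in red with 1 symbol per replicate, all axes in CPM and starting at 0. The upper panels set Soat1 and Soat2 against the summed 12 macrophage markers, where HKO 2, WT 1 and WT 4 are lowest in the markers and in Soat1. The lower panels set Stard4 and Npc1 against 17 summed SREBP2 targets, where WT 1 stands at 5017 CPM, with 253 CPM of Stard4 and 164 CPM of Npc1.

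Levels were compared between genes per kb of exon sequence. In WT livers the order from high to low was Osbpl9 at 25.3 ± 2.43 CPM per kb (SD, n = 4), Osbpl1a at 23.0 ± 1.22, Nceh1 at 18.7 ± 3.41, Npc1 at 14.4 ± 0.669, Npc2 at 10.7 ± 2.34 and Osbpl2 at 8.24 ± 0.236. Below these came Soat2 at 5.13 ± 1.084 CPM per kb, Stard3 at 1.49 ± 0.29, Osbpl5 at 0.889 ± 0.312 and Soat1 at 0.385 ± 0.131. Of the neighbours in this order, only Osbpl2 and Soat2, and Soat2 and Stard3, had WT ranges that did not overlap. The 6 genes above Soat2 and the 3 genes below it thus each formed a run of overlapping neighbours. Per kb, the esterifying gene Soat2 was above Soat1 in each of the 4 WT livers.

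**Figure D3:**
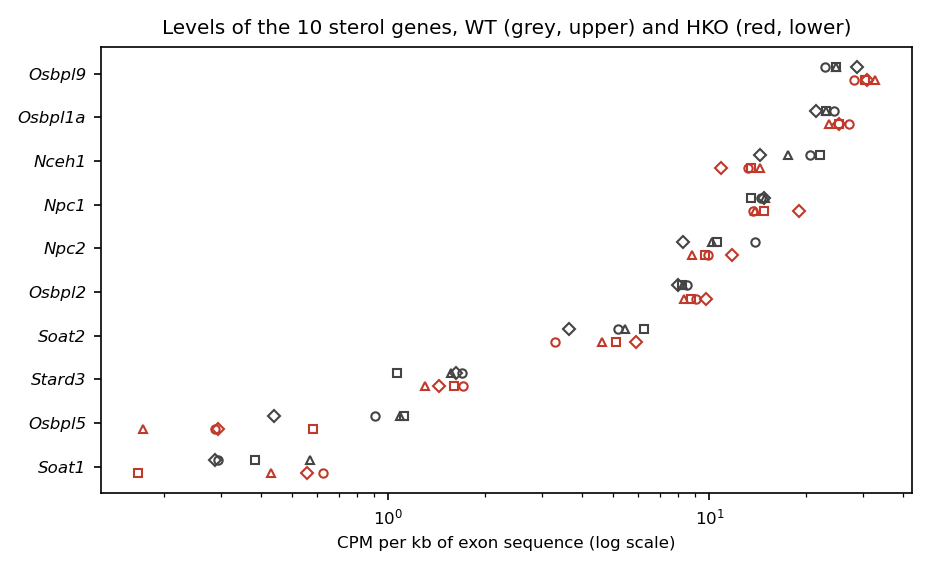
CPM per kb of exon sequence (log axis) for each of the 10 genes, ordered by the WT mean, with the 4 WT livers in grey above and the 4 HKO livers in red below each line. The upper 6 genes run from Osbpl9 at 25.3 to Osbpl2 at 8.24 CPM per kb in the WT mean, Soat2 follows at 5.13, and Stard3, Osbpl5 and Soat1 lie at or below 1.49.

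A wider list of 30 genes of the same route was set beside the 10 genes, of which 24 could be tested. In HKO livers 3 of the 24 were lower, Osbpl3, Lipa and Ces1d, and none was higher, where 3.37% of all genes were called lower. The median log2 fold change of the 24 genes was -0.14, beside 0.01 for all genes, with 18 genes below 0, where 48.4% of all genes were below 0. The genotypes did not overlap in 6 of the 24 genes, all lower in HKO livers, against 7.19% of all genes in that direction. An unadjusted p under 0.05 was found for 9 of the 24, Scarb2 and Aadac in the higher and the others in the lower direction. Over all genes this held for 19.8%, 10.7% lower and 9.08% higher. DESeq2 called 5 of the 24 lower and none higher, beside 5.07% and 3.11% of all genes. Limma-voom called 3 lower and none higher, beside 3.25% and 1.61%. Osbp2, Osbpl6, Osbpl10, Stard6, Npc1l1 and Cel had too few counts to be tested.

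**Figure D4:**
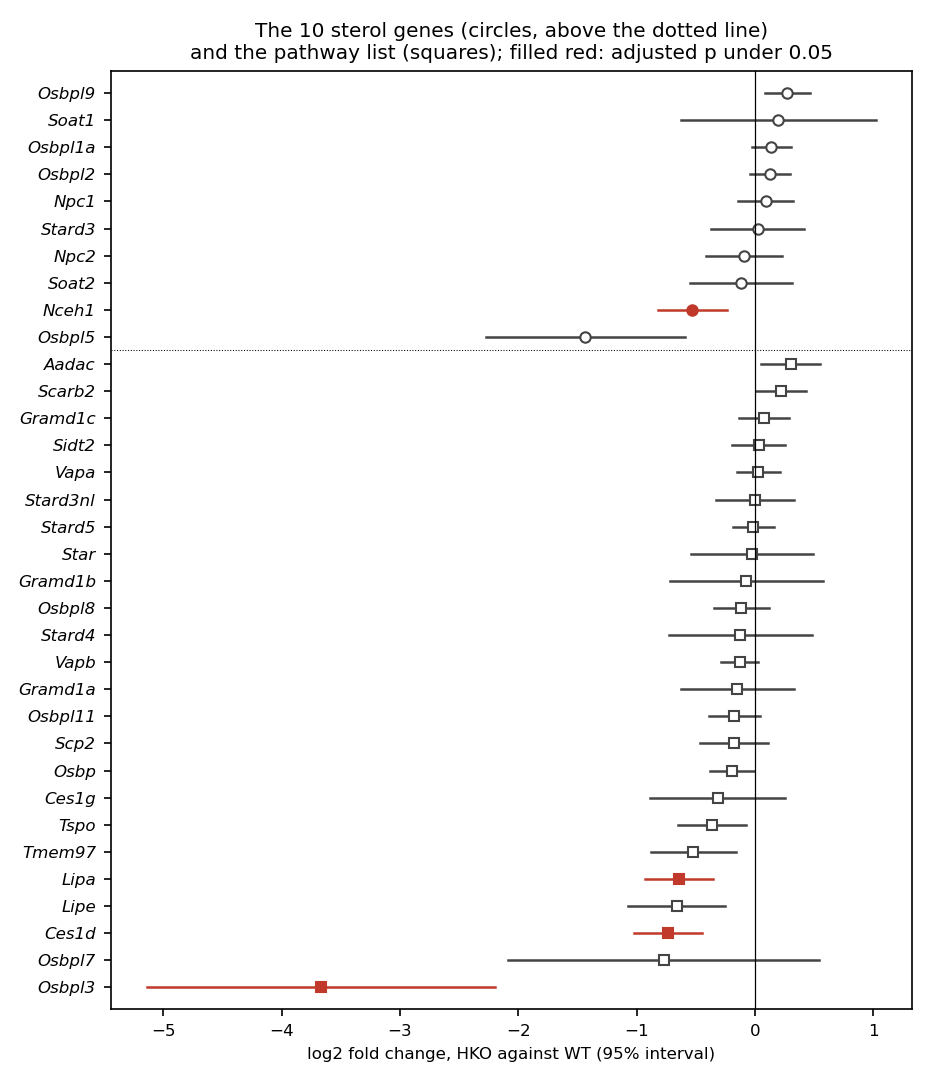
Log2 fold change of HKO against WT livers with its 95% interval for the 10 genes (circles) and the 24 tested genes of the wider list (squares), filled in red where the adjusted p was under 0.05. Nceh1, Lipa, Ces1d and Osbpl3 are the filled ones, all left of 0, and Osbpl3 lies farthest out at -3.67.

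The enzymes that hydrolyse neutral lipid esters held 2 of these 3 calls. Lipa, on chromosome 19 from 34492316 to 34527474, encodes lysosomal acid lipase, which frees lipoprotein cholesterol from its ester ahead of the NPC proteins. It was at 424, 440.0, 343 and 314 CPM in WT livers and at 269, 229.7, 202 and 273 CPM in HKO livers, with every HKO liver below every WT liver. Lipa had a log2 fold change of -0.64 (SE 0.13, 95% interval -0.93 to -0.36, adjusted p = 0.0181, edgeR), or 1.56-fold lower, and the call was lost without WT liver 1 (adjusted p = 0.0602) or WT liver 2 (0.0705).

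Ces1d, on chromosome 8 from 93166072 to 93197804, encodes a carboxylesterase of the endoplasmic reticulum that acts on stored lipid. It was at 691, 607, 486 and 577 CPM in WT livers and at 354, 403, 280.2 and 383 CPM in HKO livers. The genotypes were clearly apart. Its log2 fold change was -0.73 (SE 0.13, 95% interval -1.02 to -0.45, adjusted p = 0.0101, edgeR), or 1.66-fold lower, and leaving out any 1 of the 8 livers kept the call, with an adjusted p of at most 0.043.

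Lipe, on chromosome 7 from 25379527 to 25395987, encodes hormone-sensitive lipase, which also hydrolyses cholesteryl ester. It was at 11.1, 16.1, 13.5 and 8.54 CPM in WT livers and at 7.15, 9.19, 6.65 and 8.17 CPM in HKO livers. WT liver 4 lay below the highest HKO liver and the other WT livers lay above all of them. Its log2 fold change was -0.66 (SE 0.19), with an adjusted p of 0.0695 from edgeR and 0.0285 from DESeq2, and of 0.023 from edgeR without WT liver 4. Lipe shares its listed position with another gene and its values hold fractions in all 8 livers.

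With Nceh1, the hydrolases make 6 tested genes, of which 3 were lower in HKO livers and none higher, beside 3.37% and 1.66% of all genes, with a median log2 fold change of -0.59. Of the other 28 tested genes of both lists, 1 was lower, with a median of -0.08. Aadac and Ces1g were the remaining tested hydrolases, at log2 fold changes of 0.30 (adjusted p = 0.164) and -0.32 (adjusted p = 0.547, both edgeR). The split into hydrolases and the rest was made with these values known, and it was not tested.

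**Figure D5:**
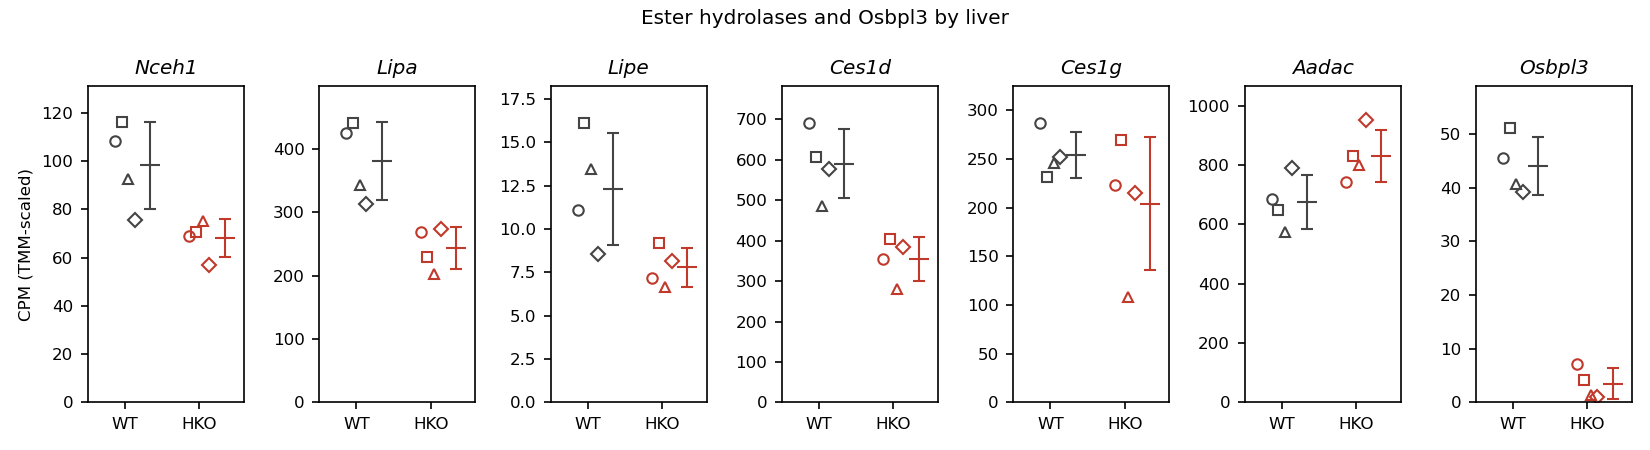
CPM of Nceh1, of the 5 other tested ester hydrolases and of Osbpl3 in each liver, drawn as in the plot of the 10 genes, with the mean and SD (n = 4) beside the points. HKO livers lie below all WT livers in Nceh1, Lipa, Ces1d and Osbpl3, overlap them in Lipe and Ces1g, and hold the highest values in Aadac.

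Osbpl3, a relative of Osbpl5 that also sits at contacts of the endoplasmic reticulum with the plasma membrane, had the largest fold change of both lists. It lies on chromosome 6 from 50293327 to 50456354. It was at 45.6, 51.1, 40.6 and 39.2 CPM in WT livers and at 7.22, 4.25, 1.41 and 0.936 CPM in HKO livers. The HKO livers were far below the WT livers and also far from each other, between 11 and 107 counts. The log2 fold change was -3.67 (SE 0.61, 95% interval -5.14 to -2.20), 12.7-fold lower, with an adjusted p of 0.0248 from edgeR. DESeq2 gave an adjusted p of 2.49e-07 and limma-voom one of 0.00143. Leaving out any of 4 livers ended the call, WT liver 1 (adjusted p = 0.0715, edgeR), WT liver 2 (0.0779), WT liver 3 (0.0531) or HKO liver 2 (0.0642). The other 4 tested relatives on the wider list were not called. Among them Osbp, the founding member and a carrier at the Golgi, had a log2 fold change of -0.19 (SE 0.08, adjusted p = 0.228, edgeR). Osbpl6, whose seed match is shown above, was at 0 to 7 counts per liver and was not tested.

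Stard4, on chromosome 18 from 33199138 to 33213862, encodes a soluble sterol carrier whose gene is driven by SREBP2. It was at 253 CPM in WT liver 1, at 131.4, 106 and 125 CPM in the other WT livers and at 135, 146, 135 and 149 CPM in HKO livers. WT liver 1 stood far above all others, and the 4 HKO livers lay above the other 3 WT livers. Stard4 had a log2 fold change of -0.12 (SE 0.26, adjusted p = 0.854, edgeR), or of 0.23 without WT liver 1 (adjusted p = 0.29, edgeR).

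The same liver was set apart by the SREBP2 targets as a list. All 17 targets had a log2 fold change below 0, where 48.4% of all genes did. Hmgcs1, an early enzyme of cholesterol synthesis, was at 1082 CPM in WT liver 1, at 187 to 319 CPM in the other WT livers and at 105 to 152 CPM in HKO livers (log2 fold change -1.77, adjusted p = 0.177, edgeR). Npc1, also known to respond to SREBP2, was not high in WT liver 1, at 164 CPM. Of the 10 genes only Npc2 had its highest value in that liver.

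Other lists bear on the cells and compartments in which the 10 genes act. Over all genes 1.66% were called higher and 3.37% lower. Of 8 targets of the oxysterol receptor LXR, Abca1 was called higher. The median log2 fold change of the 8 was 0.18, with 7 above 0 and 1, Lpcat3, below at -0.41. The genotypes did not overlap in 3 of these 8 targets, all higher in HKO livers, beside 5.34% of all genes. For 4 of the 8, Lpcat3 among them, the unadjusted p was under 0.05 (edgeR), beside 19.8% of all genes. DESeq2 called 2 of the 8 higher and 1, Lpcat3, lower, beside 3.11% and 5.07%. Of 18 lysosomal genes 1 was called lower, Psap, a precursor of lipid-binding lysosomal proteins, at a log2 fold change of -0.49 (adjusted p = 0.0112, edgeR), lost without WT liver 2 (0.0541). An unadjusted p under 0.05 (edgeR) was found for 9 of the 18 lysosomal genes, beside 19.8% of all genes. The genotypes did not overlap in 2 of them higher and 4 lower in HKO livers, beside 5.34% and 7.19% of all genes. DESeq2 called 1 of them higher and 2 lower, beside 3.11% and 5.07%. The summed level of the 18 genes was 4248 to 4432 CPM in WT and 4161 to 4530 CPM in HKO livers, with HKO liver 4, the liver with the most Npc1, at the top. Of 9 hepatocyte markers 4 were called higher in HKO livers, the largest being Cps1 at 1.26, Serpina1a at 0.61 and Fga at 0.54 on the log2 scale. Over all 9 the median log2 fold change was 0.36, with 6 above 0 and 3 below. The list summed to 92729 to 126530 CPM in WT and 85739 to 138207 CPM in HKO livers. None of 6 markers of sinusoidal endothelium, 3 of neutrophils and the 2 tested of 4 cholangiocyte markers was called by edgeR or DESeq2 or had an unadjusted p under 0.05. Markers of lymphocytes and adipocytes were too low to be tested. Of 5 pancreatic acinar markers, Cela1 was higher in HKO livers (log2 fold change 1.38, adjusted p = 0.0233, edgeR) and the other 4 were at or under 0.386 CPM. The part of these groups in the values of the 10 genes was not tested.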

How the data were processed

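Genotype and replicate number of the 8 livers were taken from the labels, and each library was taken as 1 mouse. The authors deposited estimated counts per gene, from Partek's expectation-maximization quantification, without normalization. The submitters' processing notes name STAR and Partek. Versions, genome build and annotation are not given in the sources used here, nor is the strand setting. Ribo-Zero depletion and a small RNA kit are both named for the libraries, so their type is uncertain. Of the deposited values 80.6% were whole, and 82.5% of 17789 symbols found in RefSeq GRCm38.p6 had the same start or end there. Most listed ends lay 1 base past the RefSeq end, so ends were reduced by 1.

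Estimated counts were rounded and tested with edgeR 4.0.16 in R 4.3.3 (TMM scaling, default filter with minimum count 10, robust quasi-likelihood test, Benjamini-Hochberg adjustment over 12395 genes, threshold 0.05). The biological coefficient of variation was 0.18. Folds and their intervals come from this fit. CPM used TMM-scaled totals, and levels per kb used the exon union of GENCODE vM21. Other models were limma-voom (limma 3.58.1) and DESeq2 1.42.0, and other settings were scaling by upper quartile, RLE or total count, no filter, at least 10 counts in every liver, legacy quasi-likelihood, the replicate number as a block, and each liver left out in turn. Ratios used exact permutations in Python 3.11.15 with scipy 1.17.1. The models were tested on simulated counts. The depth of 12174339 to 18735785 counts puts 3 counts at 0.16 to 0.246 CPM of the unadjusted totals.

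The genes, the wider list, the SREBP2, LXR and lysosome lists, the marker lists and the tests were chosen with earlier results of these data known. Named are all 10 genes, called genes of the wider and context lists, at most 3 called genes per marker list, and Stard4, Osbp, Osbpl6, Lipa, Lipe, Hmgcs1 and Abca1. One further result of this rule is not reported here. Aadac, Ces1g, Scarb2, Vapb, Lpcat3 and genes that overlap or were not tested were named after their values were seen.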

Additional observations from a re-analysis of the deposited data

Results flagged for a closer look

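In 4 of 60 groups of 4 livers looked at, a single liver lay so far from the other 3 that its gap to the nearest, as a share of the group's range, passed Dixon's 95% critical value. Chance gives about 1 in 20 groups, or 3 of 60. Hmgcs1 was at 1082 CPM in WT liver 1 and at 187 to 319 CPM in the other WT livers. The summed SREBP2 targets were at 5017 CPM in the same liver and at 1673 to 2181 CPM in the other WT livers, and these 2 flags share that gene. The summed macrophage markers were at 98.8 CPM in HKO liver 2 and at 281 to 303 CPM in the other HKO livers. The summed lysosomal genes were at 4530 CPM in HKO liver 4 and at 4161 to 4212 CPM in the other HKO livers. None of the 10 sterol transport and esterification genes had such a liver in either genotype.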

How the results depend on the processing

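The precision rests on 4 livers per genotype and, for Soat1, Stard3 and Osbpl5, on counts of 15 to 112 per liver. A log2 fold change near 0 with a wide interval, as for Soat1, shows no equality. The cause of the changes listed here was not tested. DESeq2 called 1014 genes (385 higher, 629 lower), 1 of the 10 genes higher and 2 lower, and 5 of the wider list lower. Limma-voom called 0 of the 10 genes lower. Total count scaling called 119 genes higher in all, and gave log2 fold changes of -0.00129 for Npc1 and -0.0622 for Stard3. Leaving out each liver in turn, with fewer livers, gave 212 to 598 genes called, 61 to 230 higher and 151 to 368 lower, 0 to 1 of the 10 genes higher and 0 to 2 lower, and 1 to 4 of the wider list lower. The log2 fold changes then ranged through 0 for Npc1 (-0.0297 to 0.14), Npc2 (-0.20 to 0.0557), Stard3 (-0.10 to 0.0959), Soat1 (-0.0148 to 0.47), Soat2 (-0.25 to 0.0219) and Stard4 (-0.27 to 0.23), none of them called. The difference in the Soat2 to Soat1 ratio ranged from -0.69 to 0.15. Without WT liver 1 and HKO liver 2 together, chosen after seeing the data, 197 genes were called (51 higher, 146 lower), 0 of the 10 genes lower and 1 of the wider list lower, with log2 fold changes of 0.074 for Npc2 and 0.21 for Stard4. Among the 10 genes 1 held an 8-base seed match, 6 a 6-base match and 1 a 7-base match in the coding sequence.

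The replicate numbers did not pair the livers, with correlations of -0.06, 0.01, -0.08 and -0.15 between the deviations of same-numbered livers, and no liver correlated best with its own number. With the replicate number as a block 456 genes were called, and the adjusted p of Nceh1 was 0.0289.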
